A study of Mus musculus with 10 samples.

Results

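The genes described here encode 38 plasma proteins of blood clotting and of complement that the liver makes, 20 of coagulation and fibrinolysis and 18 of complement. They were chosen by name, as the array probes whose gene name is one of the 38 or an older synonym, and all 38 were measured among the 18921 genes tested. The livers came from 10 mice, 5 homozygous for a knockout of Gcgr, the receptor for the fasting hormone glucagon (GCGR ko/ko, here KO, 2 males and 3 females), and 5 wild type (wt/wt, here WT, 3 males and 2 females). RNA of each liver, labelled with Cy5, was hybridised to a 2-colour array beside the same pooled mouse reference RNA, labelled with Cy3, and each value is the log2 ratio of liver over reference. The strain and age of the mice and the kind of deletion are not given in the sources used here.

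Coagulation runs as a cascade in which inactive proteases in plasma activate one another until thrombin cuts fibrinogen into fibrin. Complement is another cascade, started by antibodies, by microbial sugars or by spontaneous C3 activation, which ends with a pore assembled from C5b, C6, C7, C8 and C9 in the target membrane. Hepatocytes are the main source of most of these proteins.

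Gcgr itself lay between 0.28 and 0.36 in KO livers and between 7.74 and 8.14 in WT livers, as labelled. Over the 8 measured of 10 listed hepatocyte markers the mean log2 ratio was 7.10 to 7.26 in KO livers and 6.88 to 7.47 in WT livers, and 0 of the 8 passed for genotype. Arrays of slides 1 and 2 had median net Cy5 signals of 112 to 134, and those of the other slides 58.7 to 78.9. Slide 1 held KO and WT livers, as did slide 3, whereas slide 2 held only KO livers and slide 4 only a WT liver. On slide 3 the KO liver was male and the WT livers female, and on slide 1 the only female was KO 2, beside a male KO liver and male WT livers, so a difference within either slide mixes genotype with sex. The female KO livers were on slides 1 and 2 and the female WT livers on slide 3. Genotype within females therefore cannot be told apart from slide. Among males, KO 1 shared slide 1 with WT 1 and WT 2, whereas KO 5 and WT 5 shared no slide. In the Cy5 liver channel all 38 members were well above background on all 10 arrays, none was saturated, and all 38 were above the reference in the WT mean. In the Cy3 reference channel 32 of the 38 were well above background on all 10 arrays, and the exceptions were Klkb1 and C8a (9 arrays each), F13b (7), C8b (6), C9 (1) and F5 (0), whose ratios rest on a dim reference.

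Of the 38 genes, 3 passed the test for a difference between KO and WT livers. F11, the gene of coagulation factor XI, and C9, the gene of the pore-forming last component of complement, were lower in KO livers, and C1ra, the gene of the protease C1r of the classical pathway, was higher. Across all genes, 5.96% passed for genotype at an adjusted p under 0.05 (limma with genotype and sex in the model, Benjamini-Hochberg over all 18921 genes), 2.88% as higher and 3.08% as lower in KO livers. Of the 38 members 7.89% passed, a share near that background, with 1 of 20 coagulation genes (5%) and 2 of 18 complement genes (11.1%). The median genotype change was -0.03 over the coagulation genes and -0.10 over the complement genes on the log2 scale, against -0.0028 over all genes. When outlier spots were removed after the background fit, in place of before it, 0 of the 38 members passed for genotype and 337 of all genes did, against 1127, and both medians were above 0, at 0.09 and 0.06. The order used was chosen after seeing the data. Without both male KO livers the complement median was 0.03. With the slide as a block the medians were -0.08 for coagulation and -0.15 for complement, and C9 and F11 were the members that passed. Within slide 1 the medians were -0.15 for coagulation and -0.24 for complement, and within slide 3 they were 0.02 and 0.15. In bulk liver RNA, fewer cells of a type and less RNA per cell cannot be told apart.

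F11, C9 and C1ra lie on chromosomes 8, 15 and 6, and their promoters are shown because the genotype comparison turns on these genes. Each runs from 250 bases before to 50 bases after the start in RefSeq (assembly GRCm38.p6), 5′ to 3′ on the gene's own strand, with matches to the searched motifs in capitals.
F11, chr8:45261982-45262281, minus strand: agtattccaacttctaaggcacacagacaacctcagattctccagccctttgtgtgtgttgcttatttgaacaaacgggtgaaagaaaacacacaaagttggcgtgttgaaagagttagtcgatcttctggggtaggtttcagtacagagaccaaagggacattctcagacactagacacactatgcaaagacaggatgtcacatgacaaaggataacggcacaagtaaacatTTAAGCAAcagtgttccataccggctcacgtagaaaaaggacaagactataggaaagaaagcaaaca
C9, chr15:6445096-6445395, plus strand: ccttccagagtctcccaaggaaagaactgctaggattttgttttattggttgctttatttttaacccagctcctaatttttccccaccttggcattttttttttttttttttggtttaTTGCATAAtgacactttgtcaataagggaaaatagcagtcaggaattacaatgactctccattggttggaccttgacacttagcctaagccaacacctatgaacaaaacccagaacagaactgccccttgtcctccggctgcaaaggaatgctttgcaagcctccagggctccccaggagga
C1ra, chr6:124512371-124512670, plus strand: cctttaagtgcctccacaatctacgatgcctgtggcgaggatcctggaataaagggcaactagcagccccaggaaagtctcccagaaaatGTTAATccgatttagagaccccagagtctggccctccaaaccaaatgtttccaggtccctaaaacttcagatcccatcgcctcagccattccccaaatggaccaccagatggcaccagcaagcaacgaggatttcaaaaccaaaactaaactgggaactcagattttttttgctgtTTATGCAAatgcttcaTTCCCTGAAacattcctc

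The search covered both strands for the cAMP response element TGACGTCA and its core TGACG, an HNF1 motif GTTAAT, an HNF4 motif CAAAGTCCA, the C/EBP motifs TTGCGCAA and TTGCNNAA, a STAT3 motif TTCCNGGAA and a PAR bZIP motif TTATGTAA. A STAT5 motif, TTCNNNGAA, was added after the results by sex were seen. The core TGACG lies inside TGACGTCA, TTGCGCAA is a case of TTGCNNAA, and TTCCNGGAA is a case of TTCNNNGAA. Only the first promoter listed for a gene was searched, and RefSeq promoters were found for 31 of the 38 members. Counted from the start site, the F11 window held TTGCNNAA from -17, the C9 window held it from -132, and the C1ra window held GTTAAT from -160, TTGCNNAA from 17 and TTCNNNGAA from 33. Of the 31 member promoters, 35.5% held TTGCNNAA and 32.3% held GTTAAT, against 10.8% and 7.2% of all 27025 promoters searched. The core TGACG stood in 22.6% of member promoters and 21% of all promoters. The full element stood in 3.23%, which was Cpb2 alone, against 1.88% of all. TTCCNGGAA was found in 6.45% (Fga and Pros1) against 1.15% of all promoters, and TTCNNNGAA in 25.8% against 8.47%. No member window held CAAAGTCCA, TTGCGCAA or TTATGTAA, which stood in 0.477%, 0.185% and 0.955% of all promoters.

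In the contact pathway, which starts clotting on charged surfaces, F11 encodes the protease that activates factor IX. F11 had log2 ratios of 5.65, 5.66, 5.41, 5.33 and 6.09 in KO livers 1 to 5 and of 6.41, 6.53, 6.29, 6.25 and 6.61 in WT livers 1 to 5. Every KO liver lay below every WT liver, and the highest KO value was that of KO 5, a male. F11 fell by 0.72 on the log2 scale (SE 0.10, limma adjusted p = 0.0021), a 1.65-fold difference, with means of 5.63 ± 0.30 in KO livers and 6.42 ± 0.15 in WT livers (SD, n = 5 each). The change was -0.80 (SE 0.14) in females and -0.64 (SE 0.14) in males, and the difference between the sexes did not pass (adjusted p = 0.776). Female KO and WT livers shared no slide. With the slide as a block the change over both sexes was -0.58 (adjusted p = 0.0123). It was -0.81 within slide 1, also with its males alone, and -0.18 within slide 3. F11 lost its call when outlier spots were removed only after the background fit (-0.48, adjusted p = 0.492).

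The neighbour of F11 on chromosome 8, Klkb1, encodes plasma prekallikrein, and the probes of the pair lie 30.9 kb apart in the coordinates of the array files (mm7; F11 at chr8:44026954-44027013). Klkb1 had 6.07, 5.80, 5.98, 5.79 and 6.09 in KO livers and 6.07, 6.14, 6.30, 5.91 and 6.38 in WT livers. Its groups overlapped, and its change of -0.18 (SE 0.09, adjusted p = 0.317) did not pass. F12, the gene of factor XII, which starts the pathway, changed by -0.01 (SE 0.08, adjusted p = 0.95). Kng1, the gene of the cofactor kininogen, differed by 0.08 (SE 0.11, adjusted p = 0.736), and another probe of it gave -0.18.

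Among the vitamin K-dependent genes, whose proteins need carboxylated glutamates to bind membranes, 0 of 6 passed for genotype. Pros1, the gene of protein S, a cofactor of the anticoagulant protein C, had 2.16, 2.05, 2.09, 2.13 and 2.18 in KO livers and 2.53, 2.21, 2.24, 2.37 and 2.31 in WT livers. Its groups did not overlap, but the difference of -0.20 (SE 0.07, adjusted p = 0.152) did not pass. F7, the gene of factor VII, which starts clotting with tissue factor, differed by -0.26 (SE 0.09, adjusted p = 0.106). F9, the gene of factor IX, differed by -0.22 (SE 0.12, adjusted p = 0.344) over all livers. In females alone F9 had 4.28, 4.29 and 4.40 in KO livers and 4.72 and 4.96 in WT livers and passed (-0.51, SE 0.12, adjusted p = 0.0398), in males it was 0.08 (adjusted p = 0.79), and the difference between the sexes did not pass (adjusted p = 0.237). The female KO and WT livers shared no slide, so this difference in females cannot be told apart from slide. Another F9 probe gave -0.08 over all livers. Its values lay closer together in females, at 3.676, 3.881 and 3.925 in KO livers and 4.025 and 4.141 in WT livers. F2 (prothrombin), F10 (factor X) and Proc (protein C) lay between -0.03 and 0.04. Over all 38 members, KO and WT livers did not overlap for 4, F11 and Pros1 as lower and C1ra and C1s as higher in KO, which is 10.5% against 6.03% of all genes.

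None of the other coagulation groups held a gene that passed for genotype. Fibrinogen, the precursor of fibrin, is built from 3 chains whose genes lie side by side on chromosome 3. Fgb differed by 0.26 (SE 0.15, adjusted p = 0.356), Fgg by 0.14 (SE 0.20, adjusted p = 0.757) and Fga by -0.10 (SE 0.11, adjusted p = 0.68). Fgb had 8.25, 8.47, 8.12, 8.12 and 8.48 in KO livers and 8.57, 8.03, 8.17, 7.54 and 8.08 in WT livers. The groups overlapped, and both the highest and the lowest liver were WT. The cofactor gene F5 differed by 0.07 (SE 0.12) and F13b, which encodes the carrier subunit of the fibrin cross-linking factor XIII, by 0.05 (SE 0.09). The thrombin inhibitor genes Serpinc1 (antithrombin) and Serpind1 (heparin cofactor II) differed by 0.08 (SE 0.21) and -0.03 (SE 0.08), and another probe of Serpinc1 gave -0.14. The fibrinolysis genes Plg (plasminogen), Serpinf2 (the plasmin inhibitor) and Cpb2 (a carboxypeptidase that slows fibrin breakdown) lay between -0.09 and -0.08.

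For the processing used and over both sexes together, the 95% interval of each gene bounds the size of a change that the test could have missed. The intervals were not adjusted for the number of genes and do not cover a change in females or males alone. All 19 coagulation genes that did not pass had a 95% interval within 1.5-fold in either direction. So did 14 of the 16 complement genes that did not pass, and the exceptions were C8a and C8b. Over these 35 genes the interval limits ran from -0.78 to 0.58 on the log2 scale. These folds come from ratios computed with an offset of 50 signal units in each channel, which shrinks changes where a signal is dim.

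**Figure D1:**
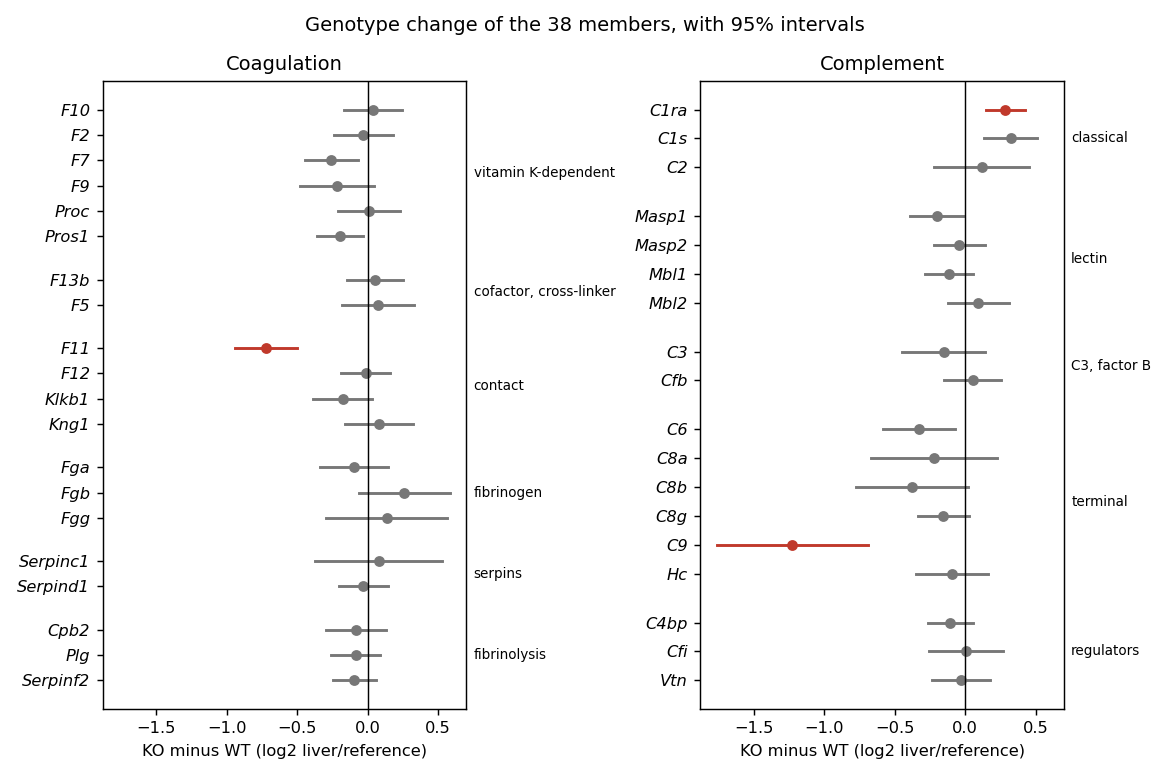
Genotype change (KO minus WT, log2 liver over reference) of the coagulation and complement genes, grouped by role, with points for the limma estimates and bars for 95% intervals (n = 5 livers per genotype). F11, C1ra and C9, in red, passed at an adjusted p under 0.05, at -0.72, 0.29 and -1.22, and the other 35 genes did not.

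In the classical pathway, C1r and C1s are the proteases of the C1 complex, and C1r activates C1s, which cuts C4 and C2. C1ra had 3.23, 3.22, 3.17, 3.06 and 3.20 in KO livers and 2.99, 2.98, 2.87, 2.77 and 2.94 in WT livers. Every KO liver lay above every WT liver. C1ra rose by 0.29 (SE 0.06, limma adjusted p = 0.0216), a 1.22-fold difference, with means of 3.18 ± 0.07 in KO livers and 2.91 ± 0.09 in WT livers (SD, n = 5 each). The change was 0.24 within slide 1, 0.38 within slide 3 and 0.29 with the slide as a block, where it missed the threshold (adjusted p = 0.0524). It also missed it with outlier spots removed after the background fit (0.33, adjusted p = 0.122), with median centring (0.38, adjusted p = 0.271), with the mean of all probes of a gene (0.21, adjusted p = 0.0595) and without the sex term (0.26, adjusted p = 0.054). Another C1ra probe gave 0.14 and did not pass in a limma fit over all probes (adjusted p = 0.34).

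C1s, 50.3 kb from C1ra on chromosome 6 by probe position, had 2.76, 2.72, 2.85, 2.73 and 2.55 in KO livers and 2.51, 2.34, 2.50, 2.18 and 2.46 in WT livers. Its groups did not overlap either, and the difference of 0.32 (SE 0.09) missed the threshold at an adjusted p of 0.0507. Another C1s probe gave 0.28. C1ra lost its call in 5 of 10 cases when a liver was left out (KO 1, KO 2, KO 3, WT 3 or WT 4, with adjusted p of 0.0502 to 0.0665), and C1s gained one in 1 case (without KO 5, adjusted p = 0.0295). The mouse carries near-identical copies of both genes, C1rb and C1s2, and whether these probes also bind their transcripts was not tested. C2, the gene of the protease subunit of the classical C3 convertase, differed by 0.12 (SE 0.15, adjusted p = 0.732), and another probe gave -0.18.

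**Figure D2:**
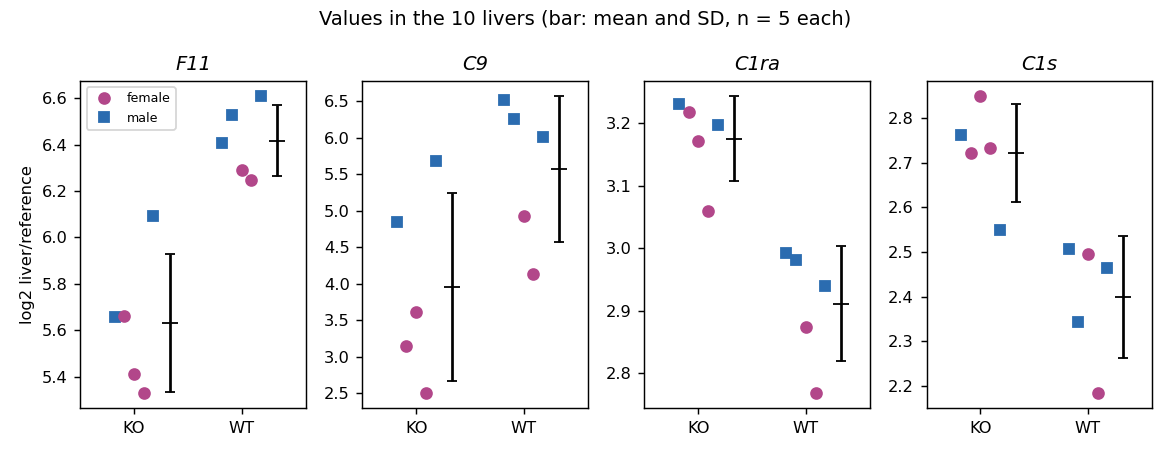
Log2 liver over reference of F11, C9, C1ra and C1s in each liver, KO left and WT right, with circles for females, squares for males and bars for mean and SD (n = 5 each). KO and WT livers did not overlap for F11, C1ra and C1s, whereas for C9 the male KO livers, at 4.84 and 5.68, lay within the range of the WT livers, 4.13 to 6.52.

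The lectin pathway uses mannose-binding lectins to recognise microbial sugars and the MASP proteases to start the cascade. None of its 4 genes passed for genotype, with differences of 0.09 for Mbl2, -0.11 for Mbl1, -0.20 for Masp1 and -0.04 for Masp2 (adjusted p of 0.207 to 0.828). Other Masp1 probes gave -0.10 and 0.15, and other Masp2 probes gave -0.18 and -0.28. C3, on which all the pathways converge, differed by -0.15 (SE 0.13, adjusted p = 0.583) and Cfb, the gene of factor B of the alternative pathway, by 0.05 (SE 0.09, adjusted p = 0.796). The regulators Cfi (factor I, which cuts C3b), C4bp (C4b-binding protein) and Vtn (vitronectin, which blocks the terminal complex) lay between -0.10 and 0.0058, and 0 of 3 passed.

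All 6 terminal pathway genes had an estimate below 0 in KO livers, with a median of -0.27, and 1 of them, C9, passed. Of all 18921 genes 9594 had an estimate below 0, and of the 38 members 24 did. The terminal median was -0.69 within slide 1 and 0.87 within slide 3, where genotype and sex are mixed. The estimates of 4 of the 6 were below 0 when outlier spots were removed after the background fit, with a median of -0.03, and 5 of the 6 without both male KO livers. C9 had 4.84, 3.14, 3.60, 2.50 and 5.68 in KO livers and 6.52, 6.25, 4.93, 4.13 and 6.01 in WT livers. Over both sexes the genotypes overlapped. Female KO livers spanned 2.50 to 3.60 against 4.13 to 4.93 in female WT livers, and male KO livers were 4.84 and 5.68 against 6.01 to 6.52 in male WT livers. Within each sex every KO liver was below every WT liver. Female KO and WT livers shared no slide, nor did the males KO 5 and WT 5. This separation therefore cannot be told apart from slide, except for KO 1 against WT 1 and WT 2.

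With sex in the model C9 fell by 1.22 (SE 0.24, limma adjusted p = 0.0143), and without sex in the model it did not pass (adjusted p = 0.202). Its net Cy3 signal was 5.02 to 43.8, mostly not well above background, so the size of the ratio is uncertain, and in the liver channel alone the change was -1.15 (adjusted p = 0.0053). The change was -1.45 (SE 0.34) in females and -0.999 (SE 0.34) in males, and the difference between the sexes did not pass (adjusted p = 0.734). With the slide as a block it was -1.19 (adjusted p = 0.0445). Within slide 1 it was -2.39, among the males of slide 1 alone -1.55, and within slide 3, where a male KO liver stood against female WT livers, 1.15. C9 lost its call without KO 1 (adjusted p = 0.057) or without WT 3 (adjusted p = 0.0535). It also lost it with median centring (-0.98, adjusted p = 0.064), with the scanner log ratio (-1.19, adjusted p = 0.124) and with outlier spots removed after the background fit (-0.89, adjusted p = 0.503).

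The other terminal genes did not pass for genotype. C6 differed by -0.33 (SE 0.12, adjusted p = 0.125), C8b by -0.38 (SE 0.18, adjusted p = 0.266) and C8a by -0.22 (SE 0.20, adjusted p = 0.597). C8g, the gene of the gamma chain of C8, differed by -0.15 (SE 0.08, adjusted p = 0.319) and Hc, the mouse name of the C5 gene, by -0.10 (SE 0.12, adjusted p = 0.703). In females alone C6 had 2.22 to 2.34 in KO livers and 2.73 to 2.86 in WT livers, without overlap, and the difference of -0.53 missed the threshold (adjusted p = 0.0641). These female KO and WT livers shared no slide. When KO 5 or both male KO livers were left out, C6 passed for genotype.

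Between the sexes, 4 of the 6 terminal pathway genes passed. Of the 18 complement genes, 5 passed between females and males, and 1 of the 20 coagulation genes did, against 11.5% of all genes. C6, C8a, C8b and C9 were lower in females, a direction in which 6.55% of all genes passed, and C3 and F7 were higher in females, where 4.99% of all genes passed. No member passed for a genotype effect that differed between the sexes, against 0.0317% of all genes (6 genes). With the slide as a block the same 6 members passed for sex, and C2 passed beside them.

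C6 had 2.22, 2.23 and 2.34 in female KO livers and 2.73 and 2.86 in female WT livers, against 5.40 and 5.91 in male KO livers and 5.77, 5.91 and 5.65 in male WT livers. The sexes were far apart in both genotypes. C6 averaged 2.48 ± 0.30 in females and 5.73 ± 0.21 in males (SD, n = 5 each), a difference of -3.19 (SE 0.12, limma adjusted p = 2.2e-08), or 9.10-fold. C9 averaged 3.66 ± 0.93 in females and 5.86 ± 0.65 in males, a difference of -1.95 (SE 0.24, limma adjusted p = 0.00035). C6 and C9 both lie on chromosome 15, with probes 1680 kb apart in mm7.

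C8a and C8b encode the alpha and beta chains of C8, and their probes lie 11.5 kb apart on chromosome 4. C8a had 7.30, 6.97 and 6.16 in female KO livers and 7.23 and 7.04 in female WT livers, against 7.94 and 8.05 in male KO livers and 8.42, 8.27 and 7.67 in male WT livers. No female reached the lowest male. C8a averaged 6.94 ± 0.45 in females and 8.07 ± 0.29 in males, a difference of -1.08 (SE 0.20, limma adjusted p = 0.0051). C8b averaged 6.54 ± 0.51 in females and 7.62 ± 0.18 in males, a difference of -0.999 (SE 0.18, limma adjusted p = 0.0042). C8g, on chromosome 2, differed by -0.16 (SE 0.08, adjusted p = 0.271) and Hc by -0.25 (SE 0.12, adjusted p = 0.2).

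F7 averaged 5.45 ± 0.17 in females and 4.97 ± 0.21 in males, a difference of 0.52 (SE 0.09, limma adjusted p = 0.0021). Its neighbour F10, 20.5 kb away by probe position on chromosome 8, differed by -0.05 (SE 0.09, adjusted p = 0.796). C3 averaged 5.82 ± 0.14 in females and 5.30 ± 0.31 in males, a difference of 0.55 (SE 0.13, limma adjusted p = 0.0211), and another probe gave 0.62. C3 did not pass when KO 1, KO 5 or WT 3 was left out (adjusted p of 0.0535 to 0.0589). Within slide 1 and within genotype, the female KO 2 minus the male KO 1 was -3.18 for C6, -1.70 for C9, -0.65 for C8a, -0.55 for C8b, 0.78 for C3 and 0.63 for F7. Within slide 3, where sex and genotype are mixed, these 6 genes had the same signs, from -3.11 for C6 to 0.86 for C3.

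**Figure D3:**
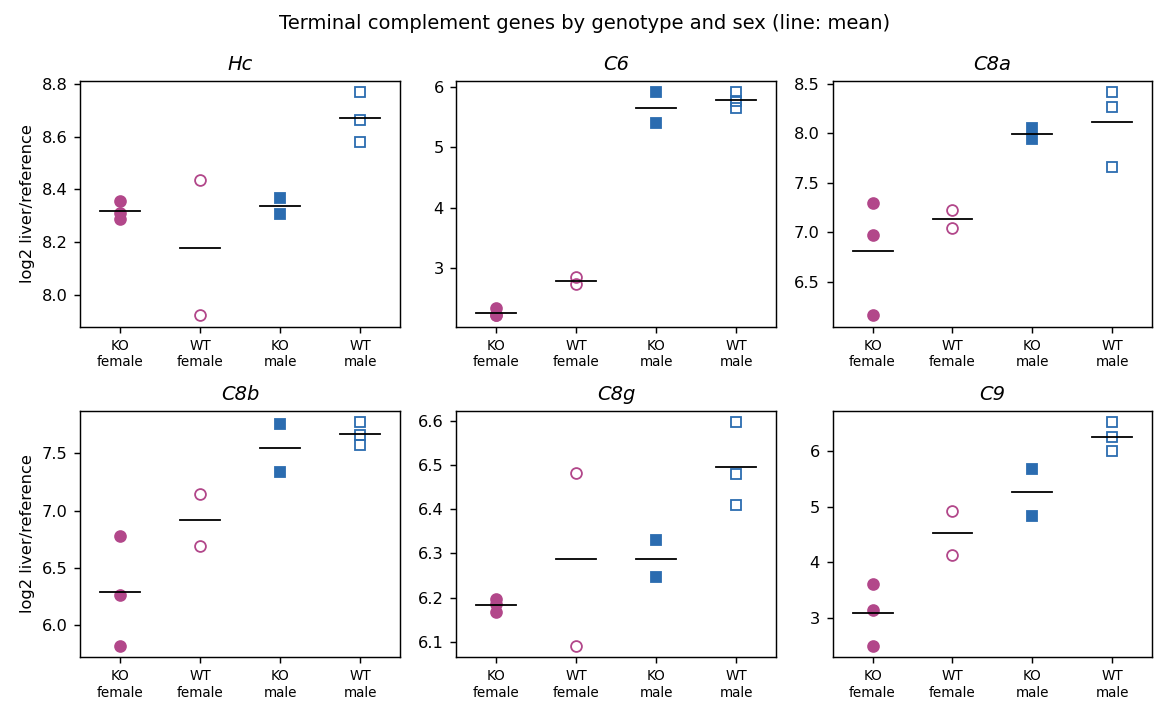
Log2 liver over reference of the 6 terminal complement genes in each liver, by sex and genotype. For C6 the females lay between 2.22 and 2.86 and the males between 5.40 and 5.91, and for C9 the KO livers lay below the WT livers within each sex. Female KO and WT livers shared no slide.

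The promoters of C6, C8a and C8b are shown, beside that of C9 above, because these are the terminal genes that were lower in females. They follow the same window, assembly and marking.
C6, chr15:4726960-4727259, plus strand: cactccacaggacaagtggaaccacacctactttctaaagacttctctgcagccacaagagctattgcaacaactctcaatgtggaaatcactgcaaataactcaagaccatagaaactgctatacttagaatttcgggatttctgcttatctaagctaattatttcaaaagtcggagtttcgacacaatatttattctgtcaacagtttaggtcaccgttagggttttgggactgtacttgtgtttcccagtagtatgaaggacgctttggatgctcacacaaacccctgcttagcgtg
C8a, chr4:104876349-104876648, minus strand: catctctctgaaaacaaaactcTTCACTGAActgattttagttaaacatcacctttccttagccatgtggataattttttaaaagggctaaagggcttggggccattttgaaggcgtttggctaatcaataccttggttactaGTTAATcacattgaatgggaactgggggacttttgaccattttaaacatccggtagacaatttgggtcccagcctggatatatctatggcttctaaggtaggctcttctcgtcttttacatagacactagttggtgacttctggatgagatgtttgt
C8b, chr4:104766067-104766366, plus strand: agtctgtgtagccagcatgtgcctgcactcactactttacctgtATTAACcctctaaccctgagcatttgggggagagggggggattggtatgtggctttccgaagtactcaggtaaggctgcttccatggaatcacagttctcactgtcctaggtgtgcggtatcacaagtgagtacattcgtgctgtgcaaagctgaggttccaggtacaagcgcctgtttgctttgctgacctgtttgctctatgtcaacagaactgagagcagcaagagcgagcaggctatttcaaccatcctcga

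Of these, the C8a window held TTCNNNGAA from -228 and GTTAAT from -107, the C8b window held GTTAAT from -206, and the C6 window held none of the searched motifs. Among the 6 terminal gene promoters, 50% held GTTAAT, 16.7% TTGCNNAA and 16.7% TTCNNNGAA, and 0 of 6 held TGACG.

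The Cy3 signal of the common reference, which was the same RNA on every array, differed between the arrays of female and male livers for some of these genes. Analysed alone, the Cy3 channel passed for sex in 0.349% of all genes but in 4 of the 18 complement genes, C6, C8a, C8b and Mbl2, and in 0 of the 20 coagulation genes. For genotype it passed in 0.0951% of all genes and in 0 of the 38 members. Net Cy3 of C8a was 35.6, 24.1 and 10.2 beside female KO livers and 24.2 and 46.5 beside female WT livers, against 68.4 and 78.9 beside male KO livers and 95.3, 76.4 and 90.9 beside male WT livers. On the same spots net Cy5 was 12400, 9920 and 4840 in female KO livers and 9340 and 8490 in female WT livers, against 30300 and 22600 in male KO livers and 50700, 38800 and 16400 in male WT livers. The reference signal was higher on the male arrays, as the liver signal was, and the cause was not tested. In the scanner's own log ratio C8a and C8b differed between females and males by 0.11 and 0.10 (adjusted p = 0.725 and 0.687), opposite in sign to the values above.

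In the liver channel alone, 6.28% of all genes passed for genotype and 11.4% for sex. Of the members, 7 of 18 complement genes and 3 of 20 coagulation genes passed for sex there. C6 was at -3.49, C8a at -1.71, C9 at -1.69 and C8b at -1.31, each lower in females. Mbl2, the gene of a circulating mannose-binding lectin, was higher in females by 1.03 (SE 0.12, limma adjusted p = 0.00011) in the liver channel and by 0.96 (adjusted p = 0.0285) in the reference channel, and its ratio differed by -0.17 (adjusted p = 0.322). C2 (-0.40) and Masp2 (-0.31) also passed as lower in females in the liver channel, as did F11 (-0.41), whereas F7 (0.76) and F2 (0.31) passed as higher. For C3 the liver channel differed by 0.24 (limma adjusted p = 0.0524) and the reference channel by -0.48 (limma adjusted p = 0.326), and neither passed. Each channel was normalised apart from the ratio, so these values do not divide its ratio difference into parts. For genotype the liver channel alone passed F11, C9, C1ra and C1s, at -0.86, -1.15, 0.39 and 0.35.

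**Figure D4:**
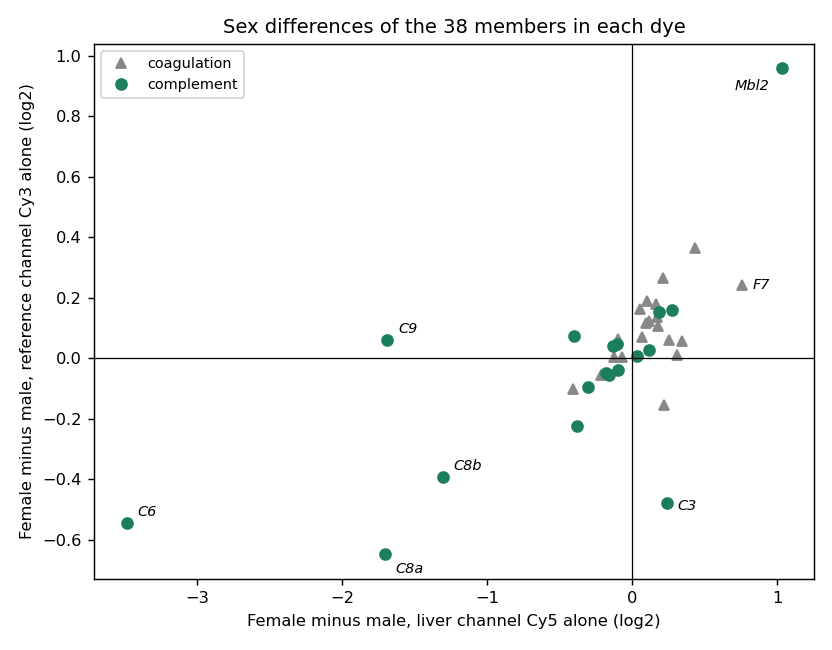
Female minus male difference of the 38 members in the Cy5 liver channel and in the Cy3 reference channel, each analysed alone on the log2 scale. Mbl2 stands at 1.03 and 0.96, C6 at -3.49 and -0.54, and C8a at -1.71 and -0.65, where a constant reference would give 0 in Cy3.

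Outside the 38, further genes of the same systems were examined for genotype. Their lists were made with earlier results of these data known, so the shares below only describe them. Of 30 other coagulation genes measured (of 36 listed), 2 rose and 0 fell, which is 6.67% against 5.96% of all genes. F8, the gene of factor VIII, had 2.50, 2.39, 2.65, 2.54 and 2.57 in KO livers and 2.14, 1.82, 2.17, 2.10 and 2.02 in WT livers. The groups did not overlap, and F8 rose by 0.47 (SE 0.08, limma adjusted p = 0.0083). Endothelial cells are the main source of factor VIII, and the mean over 9 of 9 endothelial markers was 3.39 to 3.61 in KO livers and 2.84 to 3.27 in WT livers, without overlap. The median change over these markers was 0.20, with 0.34 within slide 1 and 0.05 within slide 3. Of those markers Lyve1 (1.47) and Pecam1 (0.26) passed, and KO and WT livers did not overlap for 2 of the 9. Whether the mean stays apart without Lyve1 was not tested. The part of the markers in the F8 result was not tested. F2r, the gene of a thrombin receptor, rose by 0.42 (SE 0.09, limma adjusted p = 0.0206), with -0.20 within slide 1 and 1.86 within slide 3, and its sexes differed by -1.49. It lost its call without KO 1, KO 4, KO 5 or WT 3 (adjusted p of 0.0507 to 0.0789), and without the sex term it was 0.12 (adjusted p = 0.918).

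Of 29 other complement genes measured (of 38 listed), 2 rose and 1 fell, which is 10.3% against 5.96%. Cd55, the gene of a membrane inhibitor of C3 convertases, rose by 0.69 (SE 0.14, limma adjusted p = 0.0134). C1rl, a gene related to C1r, fell by 0.38 (SE 0.09, limma adjusted p = 0.0283), opposite in sign to C1ra, and lost its call in 4 of 10 cases with a liver left out. The C1q genes, which macrophages such as Kupffer cells express, differed by between -0.02 and 0.01. The 12 of 12 Kupffer cell markers measured, which include the C1q genes, had a median change of 0.16. Of these markers 10 had an estimate above 0, and 0 passed for genotype.

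Among 29 of 29 listed genes of transcription factors and signalling proteins that act on liver genes, 1 rose and 4 fell, which is 17.2% against 5.96% of all genes. The list was made with earlier results of these data known, so this share cannot be read as an excess. Lifr, the gene of the leukaemia inhibitory factor receptor, had 5.65, 5.91, 5.65, 5.70 and 5.77 in KO livers and 6.91, 7.06, 7.46, 6.98 and 6.58 in WT livers. The groups did not overlap, and Lifr fell by 1.30 (SE 0.12, limma adjusted p = 0.0002). Stat3, an acute phase transcription factor gene, fell by 0.35 (limma adjusted p = 0.037), Ppargc1a, a coactivator of fasting genes, by 0.50 (limma adjusted p = 0.0164) and Nr1d1, a clock repressor, by 0.47 (limma adjusted p = 0.0441). Foxa1, a liver pioneer factor gene, rose by 0.86 (limma adjusted p = 0.037). With a liver left out in turn, Stat3, Nr1d1 and Foxa1 each passed in 2 of 10 cases, whereas Lifr and F8 each passed in 10 of 10. Over all 24 alternatives, which include these 10, Lifr passed in 22, Ppargc1a in 18, Stat3 in 10, Foxa1 in 9 and Nr1d1 in 7. Of the genes in the lists before, Cd55 passed in 20, F8 in 19, and C1rl and F2r in 15 each.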

How the data were processed

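Livers of 10 mice were measured on 2-colour Agilent mouse arrays, per the labels. Per the labels' protocols, a Qiagen lipid tissue kit gave the RNA and the Agilent Quick Amp kit labelled it. The deposited scanner files hold spot intensity per channel from Agilent Feature Extraction 10.7.3.1, per the file headers, and probe coordinates in mm7. They also hold the log10 ratio of Cy5 over Cy3 as the scanner software deposited it, used as an alternative. The authors' deposited value table is on the log2 scale and correlated with the ratios computed here at 0.9997 to 0.9998, with slopes of 0.998 to 1.00 and column medians of 0.0078 to 0.0230, and the liver over reference direction held. Every array had the same dye orientation, so a probe's dye effect remains in its level.

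From the mean and background intensity, limma 3.58.1 (R 4.3.3) dropped 169 to 291 outlier spots per array, applied normexp with an offset of 50 and loess within arrays, with 1639 control spots at weight 0. The order, outliers first, was chosen after seeing the data, and the opposite order is an alternative. Spots were averaged per probe, a probe had to be flagged by the scanner software as well above background in Cy5 on 4 of the 10 arrays or more (26933 of 41174 probes), and the brightest probe stood for each of 18921 genes, 64 with a missing value. Names came from RefSeq GRCm38.p6 (22951 probes by accession, 6659 by symbol, 3109 by synonym, 8455 keeping the name in the files). The 38 members had 54 probes, and 13 members had more than 1.

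Genotype and sex entered 1 limma model, with an interaction in another, adjusted by Benjamini-Hochberg over all genes at 0.05. The code was tested on simulated data. Replicates are separate livers by their labels, and nothing says how the animals were bred or housed, so p-values measure the spread between these livers. Precision is limited by the 10 arrays. Named with values are members passing for genotype or sex, up to 10 members of each arm by size of genotype change, genes of the other lists that passed for genotype (up to 12 a list), Gcgr and outlying members. The members and lists were chosen with earlier results of these data known. The values of 1 gene of the other complement list are not reported here.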

Additional observations from a re-analysis of the deposited data

Results flagged for a closer look

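Among the 76 member-by-genotype groups of 5 livers, 6 held a liver set apart from the other 4, where chance flags about 1 in 20. For F5 in KO livers the gap of the lowest liver took 0.714 of the range, with KO 2 at 5.69 and the others at 5.81 to 5.86. For F13b in WT livers it was 0.716, with WT 3 at 7.49 and the others at 6.90 to 7.07. WT 4 lay apart for Fgg (0.813, at 9.08 against 10.08 to 10.31) and for Serpinc1 (0.803, at 8.80 against 9.75 to 9.98). That liver was the lowest of the 10 for 5 coagulation and 9 complement members. KO 5 lay apart for C2 (0.837, at 6.16 against 5.06 to 5.24) and for Vtn (0.762, at 5.85 against 6.03 to 6.09).

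Cfd, the gene of factor D of the alternative pathway, had a genotype effect that differed between females and males by -5.64 (limma adjusted p = 0.0113). It was 7.22 and 5.56 in male KO livers against 0.06 to 1.31 in male WT livers, and -0.25 to 0.20 in female KO livers against -0.14 and 0.06 in female WT livers. The difference passed in 16 of 21 alternatives and in 8 of 10 cases with a liver left out. Its probe was well above background in 2 KO and 2 WT livers.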

How the results depend on the processing

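The limits are the number of livers, the uneven spread of sex and genotype over slides, 1 fixed dye orientation and a reference channel that moved with sex for 4 complement genes. Slides 2 and 4 each held 1 genotype, and no slide held female livers of both genotypes. Of 24 alternatives, F11 passed for genotype in 23, C9 in 18 and C1ra in 12, and C1s passed in 8. Of 23 alternatives for sex, C6 passed in 23, C9 and F7 in 21, C8a and C8b in 19 and C3 in 15. Median centring gave 276 genes for genotype with 0 complement genes, 909 genes for sex, and 71.7% of the genotype calls higher in KO, against 1127, 2, 2184 and 48.4%. Removing outlier spots after the background fit gave 337 genes for genotype (58.8% higher in KO), 0 coagulation and 0 complement genes, a coagulation median of 0.0884, 782 genes for sex, and 0 coagulation and 1 complement gene for sex. The scanner log ratio gave 2 coagulation genes for genotype (F11 and F7) and 3 complement genes for sex, with C8a and C8b reversed at 0.111 and 0.100. The Cy5 channel alone gave 3 coagulation genes for sex. Without the sex term 619 genes and 0 complement genes passed for genotype. The slide as a fixed block gave 1 complement gene for genotype, and as a random block 2 coagulation genes for sex. Without both male KO livers, 2 coagulation genes passed for genotype, and 1429 genes, 2 coagulation and 2 complement genes for sex. The cause was not tested for these. Leaving out 1 liver in turn gave 590 to 1176 genes for genotype, 1 coagulation gene, 0 to 4 complement genes, medians of -0.101 to 0.00222 for coagulation and -0.156 to -0.0548 for complement, 1540 to 2503 genes for sex, 1 to 2 coagulation and 4 to 6 complement genes for sex, and 0 to 2 members for a genotype effect differing by sex. Genotype calls dropped to 596 without KO 1, 667 without KO 4 and 590 without WT 3. Replicate numbers are shared between groups. Deviations of same-numbered livers from their genotype means correlated at 0.529, -0.425, 0.433, 0.506 and 0.222 for replicates 1 to 5. Sex was not removed, and replicate 2, the negative one, is the only number whose KO and WT livers differ in sex. These correlations therefore cannot tell whether the numbers pair the livers. With the replicate block 303 genes passed for genotype, among them C9 as 1 complement gene and F11, and 139 genes, 0 coagulation and 1 complement gene passed for sex. Leaving out saturated spots was not run, since no spot was saturated.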
